A study of Danio rerio with 9 samples.

Results

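The genes described here are annotated to general metabolism, with many genes of lipid metabolism left out. They were called as differentially expressed in the liver of zebrafish larvae treated with azithromycin or one of its impurities. They were found as the genes named under the KEGG entry Metabolic pathways for any of the compounds, leaving out those also named under lipid metabolism, PPAR signaling, steroid biosynthesis, fatty acid metabolism, glycerophospholipid metabolism, lysosome or phagosome. This gave 156 genes of the 195 under Metabolic pathways, and of 1154 genes named for any compound. The genes were thus chosen by the authors' own calls against DMSO, and all that follows on these calls is description, with no test. Wild-type AB larvae were exposed from 3 dpf for 72 h to 2 mM azithromycin or 1 of 7 impurities, named F, I, J, L, Q, R and S, and control larvae to DMSO, the solvent. RNA of the dissected liver was sequenced as 1 library per condition, so there is no replicate error and no p-value. The labels give neither how many larvae made up a library nor their sex. A single DMSO library served as control in all 8 comparisons, and each gene's direction for the 8 compounds is given side by side for that reason.

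Each deposited file names, with their direction, those genes called for 1 compound against DMSO that stand under a pathway term. The stated threshold was a 2-fold change. The names cover part of the calls: 417 of 1084 for azithromycin, 378 of 1063 for impurity J and 427 of 1058 for S. A gene under no pathway term could thus be called without being named. The files give gene names and directions, so the size of a change, the level of a gene and the depth of a library are unknown here, as is which genes lay just inside or outside the threshold. Every one of the 156 genes was named under Metabolic pathways wherever it was called, so a gene described as not called for a compound did not pass the authors' threshold there. In bulk RNA of a dissected organ, fewer cells of a type and less RNA per cell cannot be told apart. Only called genes under a pathway term are named, so the levels of liver markers could not be checked, and their calls show direction only. Of 16 hepatocyte markers, 4 were named as called for any compound (*tfa*, *fga*, *fgb* and *serpina1*). Of 14 skeletal muscle markers 4 were named (*mylpfa*, *mylpfb*, *tnnt3b* and *tpma*), and of 9 exocrine pancreas markers 2 (*amy2a* and *cel.1*). Of 6 intestine, 6 red blood cell and 4 immune markers 0 were named. A marker that was not named may stand under no pathway term, so whether it was called is not known here. Of the hepatocyte markers, *fgb* was upregulated for every compound except I, where it was downregulated. The gene *tfa* was downregulated for azithromycin and J and upregulated for Q, *serpina1* was upregulated for I, Q and F and downregulated for S, and *fga* was upregulated for S alone. The hepatocyte markers thus had calls in both directions, and their part in the metabolic calls was not tested.

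The liver is the main site at which the body makes and releases glucose, breaks down amino acids, disposes of nitrogen, activates folate and clears drugs. Glycolysis splits glucose to pyruvate in the cytosol, the citrate cycle oxidizes the carbon in mitochondria, and the respiratory chain passes the electrons to oxygen. Nucleotide synthesis, glycosylation of secreted proteins and conjugation of foreign compounds draw on the same intermediates.

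Azithromycin called 54 of the 156 genes, 28 upregulated and 26 downregulated. The whole comparison called 5.92% of 18311 genes, and the KEGG entry Metabolic pathways held 64 called genes of its 1083, or 5.91%. The 18311 genes, termed all genes in such shares, are the background of the authors' pathway test. How many of them were expressed in the liver is not known here. Impurity J called 46 (19 up, 27 down) against 5.81% of all genes and 5.45% of Metabolic pathways. Impurity I called 51 (23 up, 28 down) against 5.92% and 6.09%. For these compounds, the share called under Metabolic pathways was near that of all genes. Impurity Q called 52 (25 up, 27 down) against 5.97% and 6.28%, and impurity R called 48 (21 up, 27 down) against 5.85% and 5.72%. Impurity L called 49 (23 up, 26 down) against 5.51% and 5.82%. Impurities S and F each called 55, with 25 up and 30 down for S and 26 up and 29 down for F. Their shares were 5.78% of all genes and 6.46% of Metabolic pathways for S, and 5.67% and 6.09% for F. Both shares lay within 1 percentage point of each other for every compound.

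As a share of the 156, azithromycin called 34.6%, where it called 36.1% of the 1154 named genes. The shares were 29.5% against 32.8% for impurity J, 32.7% against 35.7% for I, 33.3% against 36.4% for Q and 30.8% against 35.1% for R. They were 31.4% against 34.5% for impurity L, 35.3% against 37.0% for S and 35.3% against 35.4% for F. The lower share in all 8 has no test, since the calls themselves chose both sets.

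The part of the metabolic calls that was upregulated can be set beside that of all genes named for a compound. Upregulated genes made up 51.9% of the called metabolic genes for azithromycin, where they made up 52.3% of all named genes. The lowest share was that of impurity J, with 41.3% against 49.7% (50.3% of its named genes were downregulated). The shares were 45.1% against 52.2% for impurity I, 48.1% against 50.5% for Q, and 43.8% against 52.3% for R. They were 46.9% against 51.3% for impurity L, 45.5% against 48.7% for S, and 47.3% against 49.5% for F. The metabolic share was the lower in all 8 comparisons, which share their control library, but not under every setting. With no exclusion it was the higher for Q (57.4%), L (52.4%) and F (51.5%), and with exclusion by KEGG terms only for azithromycin (53.6%) and Q (53.3%). For azithromycin it was also the higher with one entry per symbol (52.8%) and without the genes under cardiac muscle contraction (53.8%).

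**Figure D1:**
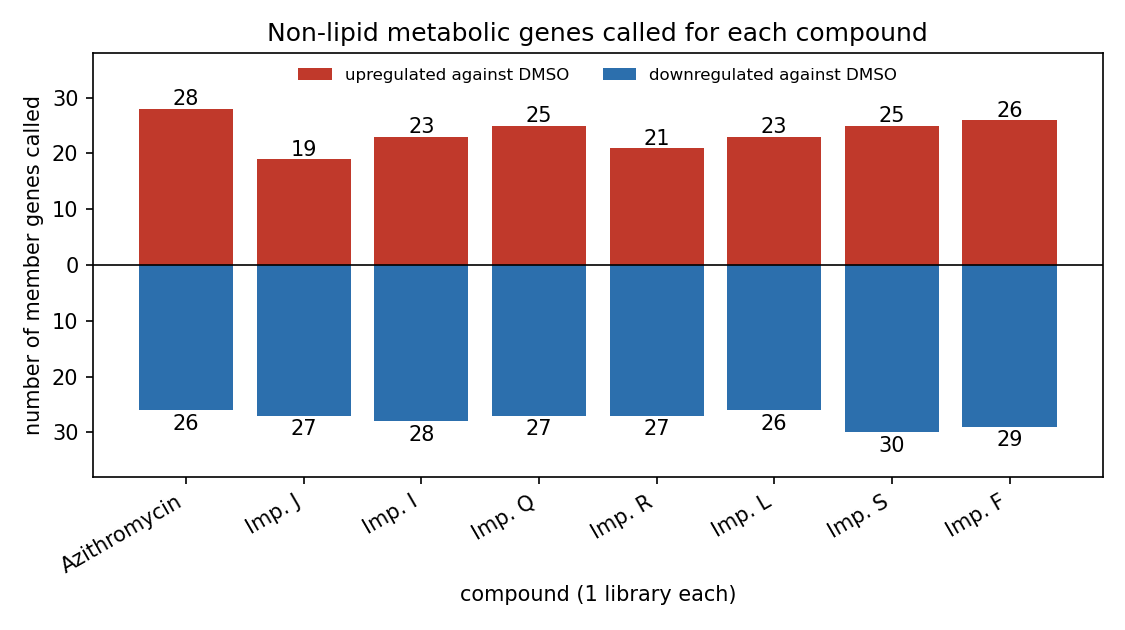
Number of non-lipid metabolic genes called for each compound against DMSO, out of 156, with upregulated genes above the zero line and downregulated genes below it, from 1 library per compound. Between 19 (impurity J) and 28 (azithromycin) genes were upregulated and between 26 and 30 were downregulated.

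Of the 156 genes, a few were called for nearly every compound. Upregulated for all 8 compounds were 2 glycan-modifying enzymes, *b3gnt2b* (Entrez 793362), which extends lactosamine chains on glycoproteins, and *ndst1b* (570459), which places sulfate groups on heparan sulfate. The gene *ganab* (100334730, named *ganabb* in RefSeq), the catalytic subunit of endoplasmic reticulum glucosidase II, which trims glucose from new N-glycans, was downregulated for all 8. The gene *fpgs* (406746), which adds the glutamate tail that keeps folate inside cells, was downregulated for every compound except impurity S. The same 7 compounds downregulated *hm* (415253, *cox5ba* in RefSeq), a subunit of cytochrome c oxidase, and *polr1a* (327078), the largest subunit of RNA polymerase I. The cytosolic malate dehydrogenase *mdh1aa* (399662) was downregulated for every compound except impurity J. All of these calls were made against the same DMSO library. How many of all 1154 named genes were called for as many compounds was not counted, so these calls have no background beside them.

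**Figure D2:**
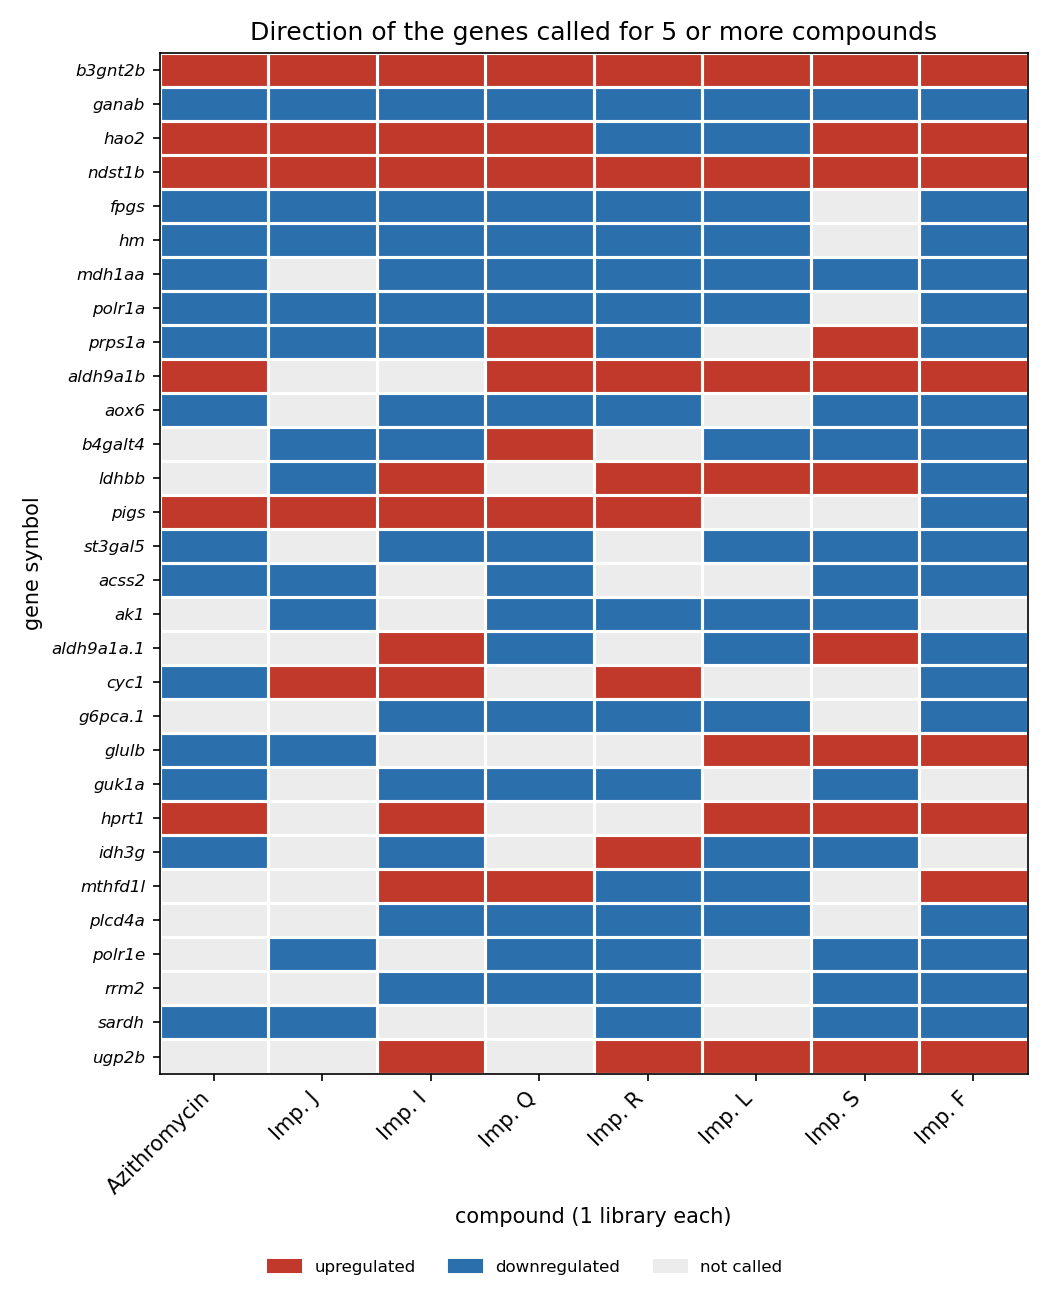
Direction of each metabolic gene that was called for 5 or more of the 8 compounds; rows are genes, columns are compounds with 1 library each, and colors mark upregulated, downregulated and not called. The genes *b3gnt2b* and *ndst1b* are upregulated and *ganab* is downregulated in all 8 columns, while *hao2*, *ldhbb*, *glulb* and *mthfd1l* carry both colors.

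Carbohydrate pathways held 54 of the 156 genes, of which 26 were called only as upregulated, 17 only as downregulated, and 11 in both directions for different compounds. Of all 1154 named genes, 139 (12.0%) were called in both directions, a share to set beside this and the later classes. In the KEGG entry for glycolysis and gluconeogenesis, 15 of the described genes were called for any compound. The called share of its 66 annotated genes ran from 4.55% for azithromycin and impurity J to 13.6% for impurity F. That of all genes was 5.51% to 5.97%. Of the textbook glycolytic and gluconeogenic enzymes, 7 of 47 symbols searched were called for any compound, beside 195 of 1083 genes under Metabolic pathways. The catalytic subunit of glucose-6-phosphatase, *g6pca.1*, which releases free glucose from the liver, was downregulated for impurities I, Q, R, L and F and not called for azithromycin, J and S. Fructose bisphosphatase *fbp1b*, another enzyme of glucose synthesis, was downregulated for impurity S alone. The same library showed *pcxb*, the pyruvate carboxylase that starts glucose synthesis from pyruvate, downregulated, with no call for the other compounds.

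The glycolytic enzymes were called in both directions. The lactate dehydrogenase gene *ldhbb* was upregulated for impurities I, R, L and S, downregulated for J and F, and not called for azithromycin and Q. The gene *gapdh*, whose enzyme takes the oxidizing step of glycolysis, was upregulated for impurities Q and L, downregulated for S, and not called for the other compounds. The aldolase gene *aldoaa* was upregulated for impurity L alone, and the triose phosphate isomerase gene *tpi1a* for impurity F alone. The enolase *eno3*, a form known mainly from muscle, was downregulated for impurities L and F. Bisphosphoglycerate mutase *bpgm* was downregulated for impurities J, I, R and F. The muscle marker *tpma* was downregulated for L and not called for F, and *mylpfa* was upregulated for both. The marker *tnnt3b* was downregulated for L and upregulated for F, and *mylpfb* was called for neither. The part of muscle tissue in the *eno3* calls was not tested.

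Among KEGG entries that hold 7 or more of the described genes, pyruvate metabolism had the highest called share for any compound. These entries, and the highest among them, were picked by the same calls, which favors high shares. Whether the entry holds more calls than other pathways was not tested. Of its 37 annotated genes, 4 were called for impurity J (10.8%), 6 for azithromycin and impurities I, R and L (16.2% each), 7 for Q (18.9%), 8 for S (21.6%) and 9 for F (24.3%), beside 5.51% to 5.97% of all genes. For F, 2 of the 9 were upregulated and 7 downregulated. For I, by contrast, 5 of the 6 were upregulated. Of all named genes, 49.5% were upregulated for F and 52.2% for I. The acetyl-CoA synthetase *acss2*, which activates acetate in the cytosol, was called as downregulated with azithromycin, J, Q, S and F. The cytosolic malic enzyme *me1*, a source of NADPH, was downregulated for azithromycin and impurities R and F and upregulated for I. The pyruvate dehydrogenase subunit *pdha1a* was downregulated for impurities L and S.

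The KEGG entry for the citrate cycle has 28 annotated genes. Of these, 1 was called for impurities J, Q and F (3.57%), 2 for I (7.14%) and 3 for azithromycin (10.7%). For R, L and S 4 each were called (14.3%), beside 5.51% to 5.97% of all genes. The 4 calls for S were all downregulated, whereas 3 of the 4 for R were upregulated. Of all named genes, 48.7% were upregulated for S and 52.3% for R. The isocitrate dehydrogenase subunit *idh3g* was downregulated for azithromycin and impurities I, L and S and upregulated for R. The succinate dehydrogenase subunit *sdhc*, which also belongs to the respiratory chain, was upregulated for azithromycin and R. Impurity R was also the sole compound with *sucla2*, a subunit of succinyl-CoA ligase, called as upregulated. The mitochondrial malate dehydrogenase *mdh2* was downregulated for impurity J, the compound without a call for the cytosolic *mdh1aa*. Of the textbook list of citrate cycle and pyruvate enzymes, 10 of 38 symbols searched were called for any compound. Beside this, 195 of 1083 genes under Metabolic pathways were called for any compound.

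Amino sugars and nucleotide sugars are the donors for glycan synthesis. Of the 9 described genes under amino sugar and nucleotide sugar metabolism, 6 were called only as upregulated and 3 only as downregulated. The entry, with 50 annotated genes, had 8 called genes for impurity S (16.0%) and 0 for J and Q. The share called of all genes was 5.51% to 5.97%. The gene *ugp2b*, which makes the UDP-glucose used for glycogen and glucuronic acid, was upregulated for impurities I, R, L, S and F. The gene *uap1*, which makes UDP-N-acetylglucosamine, was upregulated for impurities I, S and F. The amylase *amy2a*, an exocrine pancreas marker, was downregulated for impurities I and S. The other called pancreas marker, *cel.1*, was downregulated for I alone. A further amylase gene (393400, *amy2al1* in RefSeq) was upregulated for S alone, so that it and *amy2a* were opposed for S. The neighboring genes *chia.2*, up for S, and *chia.3*, down for I and S, were opposed there as well. How reads were divided within these pairs is not given in the sources used here, so these opposed calls are uncertain. The part of pancreatic tissue was not tested.

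Peroxisomal *hao2* (393455), an oxidase of hydroxy acids, was called for all 8 compounds but not in 1 direction. It was upregulated for azithromycin and impurities J, I, Q, S and F and downregulated for R and L. Since a gene above the control in one treated library and below it in another differs between these 2 libraries, this contrast does not rest on the DMSO library.

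**Figure D3:**
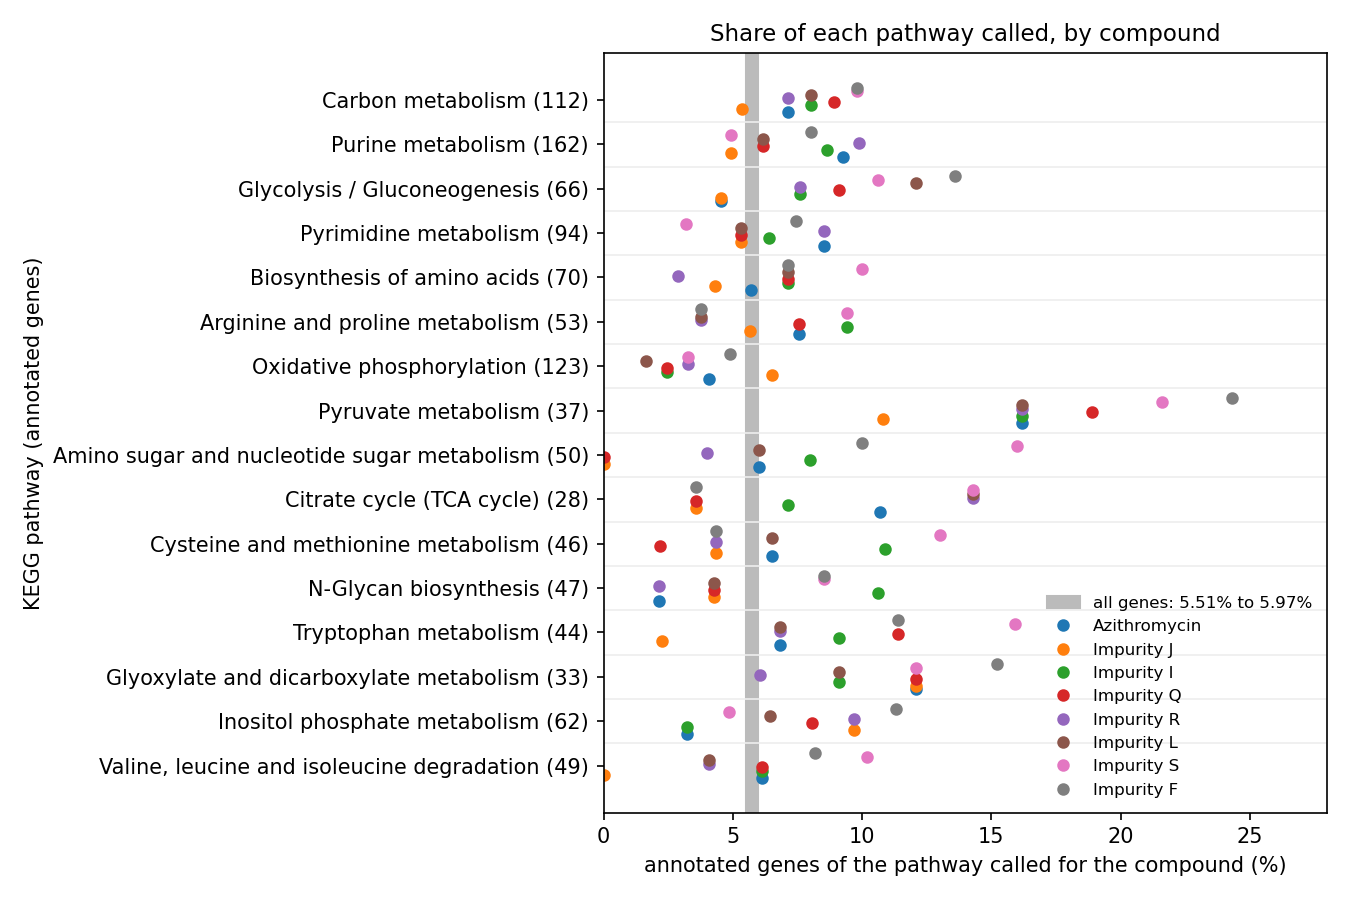
Share of the annotated genes of each KEGG pathway that was called for each compound (percent, both directions), for metabolic pathways that hold 7 or more of the described genes; the number of annotated genes is in brackets, each point is 1 compound, and the gray band marks the share called among all genes. Pyruvate metabolism lies between 10.8% and 24.3%, above the band of 5.51% to 5.97%, and oxidative phosphorylation between 1.63% and 6.50%. The pathways were picked by the same calls, which favors high shares, and all points share the DMSO library.

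Oxidative phosphorylation has 123 annotated genes. From 2 genes (1.63%, impurity L) to 8 (6.50%, impurity J) were called, and impurity J was the sole compound above its share of all genes. The described genes here were 10, and they belonged to different complexes. From complex I, *ndufb3* was downregulated for impurity J alone and *ndufs7* upregulated for S alone. From complex III, *cyc1*, which carries the heme that hands electrons to cytochrome c, was upregulated for impurities J, I and R and downregulated for azithromycin and F. The small subunit *uqcrh* was downregulated for J, Q, S and F, and *uqcrb* was upregulated for J and S.

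Cytochrome c oxidase showed opposed subunits. While *hm* was downregulated for 7 compounds, *cox5ab*, which encodes another nuclear subunit, was upregulated for impurities J, Q, R and F. In these 4 libraries the 2 subunits were therefore called in opposite directions against the same control. The subunit *cox7b* was downregulated for impurity J alone, and *cox4i1l* was upregulated for F alone. Of the textbook symbols searched, 2 of 56 were called for complex I, 3 of 12 for complex III, 4 of 32 for complex IV and 0 of 32 for ATP synthase. These lists include alternative spellings, and 195 of 1083 genes under Metabolic pathways were called for any compound. Among these respiratory genes, 7 also stand under the KEGG entry for cardiac muscle contraction. Of its 86 annotated genes, from 5 (5.81%, impurity I) to 12 (14.0%, impurity J) were called, beside 5.51% to 5.97% of all genes. Of the 14 skeletal muscle markers, *mylpfa* was upregulated for azithromycin and impurities J, I, L and F and downregulated for Q, R and S, and *tnnt3b* was upregulated for J, S and F and downregulated for the other 5 compounds. The marker *tpma* was upregulated for azithromycin and downregulated for J, Q, R, L and S, and *mylpfb* was upregulated for S alone. For impurity J, with the most oxidative phosphorylation calls, *mylpfa* and *tnnt3b* were thus up and *tpma* was down. The part of muscle tissue in the respiratory calls was not tested.

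Nucleotide metabolism held 26 of the genes, of which 11 were called only as upregulated, 13 only as downregulated and 2 in both directions. For impurity R, 2 were upregulated and 10 downregulated. For impurity Q the numbers were 2 and 7, for azithromycin 4 and 7, and for F 5 and 4. Of all named genes, 52.3% were upregulated for R and azithromycin, 50.5% for Q and 49.5% for F. The purine entry, with 162 annotated genes, had from 8 called genes (4.94%, impurities J and S) to 16 (9.88%, impurity R). The share called of all genes was 5.51% to 5.97%. The gene *prps1a*, which makes the ribose phosphate donor for all nucleotides, was downregulated for azithromycin and impurities J, I, R and F, upregulated for Q and S, and not called for L.

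The downregulated nucleotide genes included polymerase subunits and nucleotide kinases. The RNA polymerase I subunit *polr1e* was downregulated for impurities J, Q, R, S and F, of which S had no call for *polr1a*. The RNA polymerase II subunit *polr2c* was upregulated, for azithromycin and impurities J, Q and F. Adenylate kinase *ak1* was downregulated for impurities J, Q, R, L and S, and *ak4*, its mitochondrial relative, for Q and L. The guanylate kinase *guk1a* was downregulated for azithromycin and impurities I, Q, R and S, while its paralog *guk1b* was upregulated for azithromycin alone. The purine salvage enzyme *hprt1* was upregulated for azithromycin and impurities I, L, S and F.

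A pair of entries carry the symbol *rrm2*, the small subunit of ribonucleotide reductase, which makes the building blocks of DNA. The one with Entrez identifier 100330864 was downregulated for impurities I, Q, R, S and F. The other, 30733 (*rrm2l* in RefSeq), was upregulated for R alone. For impurity R they were thus called in opposite directions, and how the counting divided reads between such copies is not given in the sources used here, so both calls are uncertain. The same holds for the pair *guk1a* and *guk1b* for azithromycin. Of the textbook purine and pyrimidine symbols, 23 of 110 searched were called, 21 of them among the described genes. Beside this stand the 195 of 1083 genes called under Metabolic pathways for any compound.

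Amino acid pathways held 47 genes, 20 of them called only as upregulated, 19 only as downregulated and 8 in both directions. The balance differed most between impurity J, with 1 up and 9 down, and impurity L, with 10 up and 5 down. Several of these genes are also counted under carbohydrate pathways. Among them are *bpgm*, *ldhbb*, *mdh2* and *prps1a*, down for J, and *aldoaa*, *gapdh*, *ldhbb* and *ogdha*, up for L. Of all named genes, 49.7% were upregulated for J and 51.3% for L. These few calls come from 1 library per compound. Glutamine synthetase *glulb*, which traps ammonia in glutamine, was downregulated for azithromycin and impurity J and upregulated for L, S and F. The lysine-degrading enzyme *aass* was upregulated for azithromycin and impurities Q and L and downregulated for R. The aldehyde dehydrogenase *aldh9a1b* was upregulated for azithromycin and impurities Q, R, L, S and F. Its paralog *aldh9a1a.1* was upregulated for I and S and downregulated for Q, L and F, so that the pair was opposed for Q, L and F. How reads were divided between these paralogs is not given in the sources used here, so these opposed calls are uncertain.

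Enzymes of the breakdown of single amino acids were called in each direction. Homogentisate dioxygenase *hgd*, of tyrosine breakdown, was upregulated for azithromycin and impurities R, L and F, whereas *gstz1*, a later enzyme of the same route, was downregulated for azithromycin and L. Tryptophan dioxygenase *tdo2a* was downregulated for impurities I, R and S, and proline dehydrogenase *prodha* for I, Q and R. The enzyme *aldh18a1*, which takes part in making proline, was upregulated for impurities J, I and Q. For I and Q the proline-making gene was thus up and the proline-degrading gene down. Sarcosine dehydrogenase *sardh*, which feeds carbon from choline into the folate pool, was called as downregulated with azithromycin, J, R, S and F. Of the textbook list of the urea cycle and amino acid breakdown, 11 of 75 symbols searched were called, beside 195 of 1083 genes under Metabolic pathways. None of the urea cycle enzymes *cps1*, *otc*, *ass1*, *asl* and *arg1* was among the 11.

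The 4 described genes under taurine and hypotaurine metabolism were called only as upregulated: *adob* for azithromycin and impurity R, *gad1b* for azithromycin, *gad2* for R and *csad* for F. Both *gad1b* and *gad2* also stand under butanoate and beta-alanine metabolism. Of the 11 annotated genes of the taurine entry, 0 to 3 were called per compound (0% to 27.3%), beside 5.51% to 5.97% of all genes. Of all named genes, 52.3% were upregulated for azithromycin and R and 49.5% for F. These few calls come from 1 library per compound. Ornithine decarboxylase *odc1*, the first step of polyamine synthesis, was upregulated for azithromycin and downregulated for impurity J. The polyamine acetylating enzyme *sat1a.2* was downregulated for azithromycin alone.

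**Figure D4:**
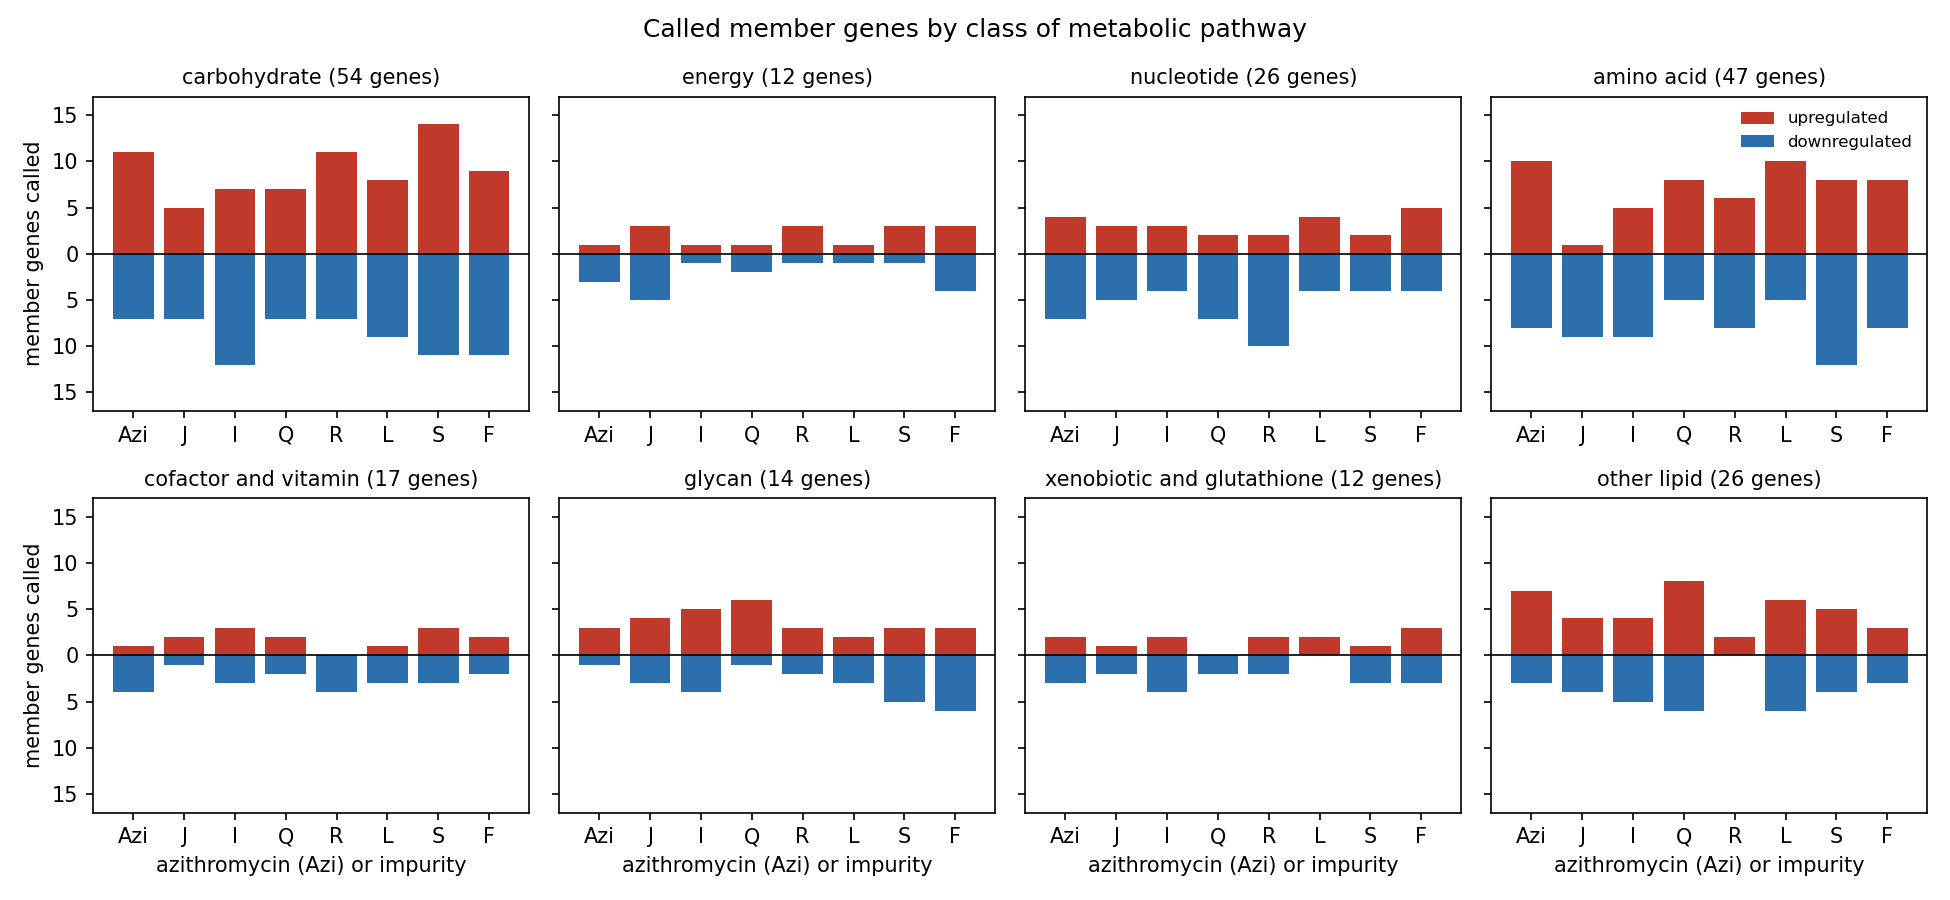
Number of called genes per compound in each class of KEGG metabolic pathway, upregulated above and downregulated below the zero line; a gene can stand in more than 1 class, and other lipid marks genes with lipid annotation that the selection did not remove. Amino acid genes show 1 up and 9 down for impurity J and 10 up and 5 down for L, and nucleotide genes 2 up and 10 down for R.

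Cofactor and vitamin pathways held 17 genes (7 called only as upregulated, 8 only as downregulated, 2 in both directions). The textbook one-carbon and folate list had 3 called of 29 symbols searched (*fpgs*, *mthfd1l* and *shmt1*), beside 195 of 1083 genes under Metabolic pathways. KEGG folate biosynthesis also held the phosphatase gene *alpi.2*, upregulated for impurity S alone. Mitochondrial *mthfd1l*, which releases formate for nucleotide synthesis, was upregulated for impurities I, Q and F and downregulated for R and L. The serine hydroxymethyltransferase *shmt1* was upregulated for azithromycin and I. The aldehyde oxidase *aox6* was downregulated for azithromycin and impurities I, Q, R, S and F. Of the heme and porphyrin list, 1 of 19 symbols was called for any compound, and it was not among the described genes.

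Glycan pathways held 14 genes, 6 called only as upregulated, 5 only as downregulated and 3 in both directions. For impurity Q, 6 were upregulated and 1 downregulated, whereas for F the numbers were 3 and 6. Of all named genes, 50.5% were upregulated for Q and 49.5% for F. The galactosyltransferase *b4galt4* was upregulated for impurity Q and downregulated for J, I, L, S and F. The galactosaminyltransferase *galnt7*, which starts mucin-type chains, was likewise upregulated for Q and downregulated for J, R and F. A subunit of the complex that attaches GPI anchors to proteins, *pigs*, was upregulated for azithromycin and impurities J, I, Q and R and downregulated for F. N-glycan assembly and processing genes other than *ganab* were called in fewer libraries, with *man1a2* upregulated for J, I and S, *alg3* downregulated for I, L and S, and *mgat4a* downregulated for I, S and F. Of the textbook glycosylation symbols, 17 of 106 searched were called, 15 of them among the described genes. Beside this stand the 195 of 1083 genes called under Metabolic pathways for any compound.

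Drug and glutathione metabolism, the classes nearest to the handling of a foreign compound, held 12 genes, 4 called only as upregulated, 4 only as downregulated and 4 in both directions. The 4 called only as upregulated, *hprt1*, *impdh1b*, *upp1* and *rrm2* (30733), are also counted under nucleotide metabolism. KEGG places 3 of the 12, *aox6*, *ugt1ab* and *ugt2a2*, under cytochrome P450 drug metabolism, and none of these was called only as upregulated. Of the textbook list of oxidizing and conjugating enzymes 10 of 101 symbols were called, and of the glutathione list 8 of 44. Under Metabolic pathways 195 of 1083 genes were called for any compound. The cytochrome P450 genes *cyp2p6*, *cyp2p9* and *cyp2p10*, which lie within a few genes of one another in the RefSeq annotation, were called only as upregulated. The first was called for azithromycin and impurities J, Q and L, the second for azithromycin and L, and the third for azithromycin. KEGG places these 3 genes under arachidonic and linoleic acid metabolism and not among the 12, and read sharing between them was not tested. Among glucuronosyltransferases, which conjugate drugs for excretion, *ugt1ab* was upregulated for impurity J and downregulated for S, and *ugt2a2* was downregulated for I.

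The selection left 26 genes with some lipid annotation, 14 called only as upregulated, 8 only as downregulated and 4 in both directions. The sialyltransferase *st3gal5*, which makes the parent ganglioside of most others, was downregulated for azithromycin and impurities I, Q, L, S and F. The sphingomyelinase *smpd5* was called as downregulated with azithromycin, J, Q and L, and *b3gnt3* for J, I, Q and L. Called only as upregulated were *b3gnt2b* for all 8 compounds, *aldh9a1b* for azithromycin, Q, R, L, S and F, and *cyp2p6* for azithromycin, J, Q and L. Of the 70 calls of these 26 genes over the compounds, 39 were upregulated (55.7%). Of all named genes, 48.7% (impurity S) to 52.3% (azithromycin and R) were upregulated. In inositol phosphate metabolism, which KEGG counts among carbohydrate pathways, 5 of the 7 described genes were called only as upregulated. Among these, *itpk1b* was called for azithromycin and impurities J and R, and *plch1* for azithromycin, J and Q. The phospholipase C gene *plcd4a* was downregulated for impurities I, Q, R, L and F. The inositol monophosphatase *impa1* was downregulated for J, I and Q and upregulated for S. None of the classes held the remaining 5 genes, of which 2 stand under ECM-receptor interaction and focal adhesion.

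Of the 156 genes, 21 (13.5%) were upregulated for some compounds and downregulated for others, beside 12.0% of all 1154 named genes. The compounds were given at the same dose and time, so these calls set pairs of treated libraries apart. Impurities L and F each differ from azithromycin only in the substituent on a side-chain nitrogen, which in F is an aldehyde. Between azithromycin and L the genes called in opposite directions were *hao2*, up for azithromycin, and *glulb*, up for L. Between azithromycin and F they were *pigs*, up for azithromycin, with *glulb* and *hsd3b7*, a bile acid enzyme, up for F. Between L and F they included *ldhbb*, up for L, and *hao2* and *mthfd1l*, up for F. With 1 library each, none of these differences has an error or a test, and a missing call in one of a pair does not show that the compounds differ.

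Impurities Q, R and S carry a changed ring position that forms a lactone or, in S, an oximido group. Between Q and R, 5 genes were called in opposite directions, all up for Q: *aass*, *galnt7*, *hao2*, *mthfd1l* and *prps1a*. Between Q and S they were *b4galt4* and *gapdh*, up for Q, and *aldh9a1a.1* and *impa1*, up for S. The *aldh9a1a.1* call for Q is uncertain, since its paralog *aldh9a1b* was opposed to it there. Between R and S, *idh3g* was up for R, and *hao2* and *prps1a* were up for S. Over the 28 pairs of compounds, the number of genes in opposite directions ran from 1 to 5. The same number over all named genes was not counted for any pair, so these counts have no background beside them. Whether they go with the structure of the compounds was not tested.

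For a single compound alone, 12 genes were called with impurity S, 7.69% of the 156, where 6.33% of the 1154 named genes were called for S alone. The shares were 6.41% (10 genes) against 5.20% for azithromycin, 6.41% (10 genes) against 5.03% for F, 5.13% (8 genes) against 4.25% for J and 5.13% (8 genes) against 4.42% for L. They were 2.56% (4 genes) against 3.90% for I, 2.56% (4 genes) against 4.25% for R and 1.92% (3 genes) against 4.94% for Q. These differences from all genes have no test. For impurity S they included the branched-chain aminotransferase *bcat2* and *fbp1b*, both downregulated, and *hmgcs1*, a cytosolic enzyme known from sterol synthesis, upregulated. For impurity J, 6 of 8 were downregulated, among them *mdh2*, *cox7b* and the mitochondrial creatine kinase *ckmt2b*, a form known from muscle. For impurity L, 6 of 8 were upregulated, including *aldoaa*, the DNA polymerase subunit *pole4* and the oxoglutarate dehydrogenase *ogdha*. For impurity F, 7 of 10 were upregulated, including *tpi1a*, *mcee*, an enzyme of propionate breakdown, and *cox4i1l*. Up and down were 5 and 5 for azithromycin, 6 and 6 for S, 2 and 2 for I, 2 and 1 for Q, and 3 and 1 for R. Of all genes named for the compound, 50.3% were downregulated for J, while 51.3% were upregulated for L and 49.5% for F. The direction of all genes called for a single compound alone was not counted. Azithromycin alone upregulated the aldehyde dehydrogenase *aldh2.2* and *gad1b* and downregulated the nucleotidase *nt5c2a*. How near any of these genes lay to the threshold is not known here.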

How the data were processed

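RNA of dissected larval liver was sequenced by a company for the authors, with 1 library for each of 9 conditions. Per the labels, FastQC, fastp and HISAT2 were used with build GRCz11; their versions, the counting tool and any test for single genes are not given in the sources used here. The threshold of 2-fold is worded in the authors' methods for upregulated genes only. The 8 deposited files hold numbers of genes per pathway of KEGG, Reactome and PANTHER. They give these numbers also as a fraction of the database total, with the authors' p-values. The called genes of each pathway are named with Entrez identifier and direction, while called genes under none of these pathways are not named. The DMSO library's own data were not analysed here. These calls are the authors' own comparison and are used because they alone define the genes. Their p-values are not reported. They served to recover the totals: the list and background sizes (searched from 200 to 3000 and from 5000 to 40000) at which Fisher's exact test, taken one-sided, returned each deposited p-value to within 5e-10, a search tested on simulated data. In all 7048 rows the number of genes equalled the genes named.

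Identity was the Entrez identifier; 2 of the 156 genes have no symbol and 155 matched RefSeq (assembly GRCz12tu), used for names and neighbors only. The planned design expected such lists, and no test was run. Pathway classes, textbook lists and markers were chosen with earlier results of these data known, as were the 156 genes. Named were genes called for 6 or more compounds, or for 4 or more in both directions, up to 4 per pathway by number of compounds, textbook list members, and up to 3 per compound called for it alone; some further pathway genes were named after their calls were seen. The calls of 1 gene are counted but not reported here by name. Alternatives changed the lipid exclusion, the gene identity and muscle-annotated genes. Python 3.11.15, pandas 2.3.3, scipy 1.17.1 and matplotlib 3.10.9 were used.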

Additional observations from a re-analysis of the deposited data

How the results depend on the processing

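The exclusion of lipid genes, the identity of a gene and muscle-annotated genes were each varied. With no exclusion there were 195 genes, with exclusion by KEGG terms only 169, and with one entry per symbol 153. Excluding a gene only in the table that names it under a lipid term also left 156 genes. Of the 42 values compared, 40 moved by less than 1.5 times or within their binomial interval with no exclusion. The exceptions were the upregulated genes of impurity Q (39 in place of 25) and the genes with lipid annotation (56 in place of 26). Without the 7 genes under cardiac muscle contraction, the energy class held 5 genes in place of 12. The share upregulated ran from 41.3% to 51.9% over the compounds, and from 40.0% to 57.4% over all these settings. No paired analysis was possible because each condition has 1 library and no test was run. The absence of read numbers limits every statement to which genes passed the authors' threshold.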

Other observations

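Some enzymes of the textbook lists stand outside the KEGG entry Metabolic pathways and were therefore not described above. The glutathione transferase *gsto2* was upregulated for all 8 compounds. The cytochrome P450 gene *cyp3c3* was upregulated for every compound except impurity S, and the cytosolic creatine kinase *ckba* for every compound except impurity I. Other genes of the drug and glutathione lists were called for fewer compounds and in both directions. Here *gsta.1* was up for I, *gsta.2* down for S, and *ces2* up for Q and down for azithromycin and L. Of those removed by the exclusion, *cbr1* was down for R and S, *ggt1a* up for Q and R, and *ggt5a* up for J and L. The mitochondrial malic enzyme *me2* was upregulated for impurities J, I, Q and F, where the cytosolic *me1* was upregulated for I and downregulated for F. The oxidoreductase subunit *magt1* of the N-glycan transfer complex was downregulated for J, I, R and F, and *gnpnat1*, which acts before *uap1* in making UDP-N-acetylglucosamine, was upregulated for I, L, S and F, so that both were up for I, S and F. Heme oxygenase *hmox2a* was downregulated for Q and S. All of these calls share the DMSO library and none has a replicate.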
